A study of Sus scrofa with 4 samples.

Results

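A set of 10 genes of adipocytes and lipid storage was followed through the thymus arrays of IL2RG knockout (KO) and wildtype (WT) pigs. They were PPARG, ADIPOQ, LEP, CD36, LPL, FABP4, FASN, SCD, PCK1 and LIPE, and every probe that the array assigns to a RefSeq transcript of one of them was taken. This gave 43 probes for the 10 genes, out of 43597 probes and 3020 named genes on the array. Of the 43 probes, 42 were bright enough to be tested, and the remaining one was the dimmer of the 2 LEP probes.

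Adipocytes store fatty acids as triglyceride in a single large droplet. Fatty acids are released from circulating lipoproteins by a lipase on the capillary wall, taken up by a membrane transporter, carried by a binding protein and esterified, or they are made in the cell from glucose, and a second set of lipases frees them again. The transcription factor PPARG turns on most genes of this programme. The thymus is surrounded by fat and gains fat cells within its own tissue as it shrinks, and several of these genes are also used by macrophages and by capillary endothelium, among them CD36, FABP4, LPL and PPARG.

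Both groups were Minnesota miniature swine, and whole thymus was measured in each. The KO samples, labelled IL2RG+/-, came from pigs in which TALEN nucleases had cut exon 2 of IL2RG. These pigs were cloned by nuclear transfer from targeted cell colonies with deletions in 1 allele, and few of the KO pigs had a thymus at necropsy, which was rudimentary. The WT samples were labelled wildtype. The ages of the arrayed pigs, the colony behind each KO array and whether the WT pigs were clones were not given in the sources used here. According to the paper, expression was analysed in those KO pigs that had a thymus. The KO samples thus came from a selected part of the KO pigs. Since nothing in the labels says more than that the samples were separate, p values measure the spread between these samples.

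There were 2 KO and 2 WT arrays, each with 1 sample and 43803 spots for genes. Slide 1 held KO replicate 1 with WT replicate 2, and slide 2 held KO replicate 2 with WT replicate 1. Between 73.5% and 74.5% of the spots were well above background on the KO arrays and between 67.9% and 68.1% on the WT arrays. All levels below are normalized log2 signals, that is, the log2 of the processed signal of a probe minus the 75th percentile of its array, so that 0 is the 75th percentile. Each probe binds with its own strength, and levels were compared between arrays only. IL2RG, the targeted gene, stood at -3.14 and -3.27 in KO replicates 1 and 2 and at -0.12 and 0.53 in WT replicates 1 and 2, in the direction of the labels (log2 fold change -3.41, SE 0.27, limma adjusted p = 0.00255). All 13 tested markers of thymocytes, the T cell precursors that fill a normal thymus, were well above background on both WT arrays and were lower in KO (median of the log2 fold changes -2.59). In whole tissue, fewer cells of a type and less RNA per cell cannot be told apart.

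A probe was called when its limma p, adjusted over all 31959 tested probes, was under 0.05 and its difference at least 2-fold, and the brightest probe of a gene, by its mean over the arrays, stood for the gene. In all, 6 of the 10 genes, PCK1, ADIPOQ, FABP4, CD36, PPARG and FASN, were called higher in KO, by 3.29-fold for FASN to 12.3-fold for PCK1. Of the 2702 named genes tested, 25.2% were called higher. No member was called lower, and none was lower at an unadjusted limma p under 0.05, whereas 12.5% of the named genes were called lower. Over the probes, 24 of 42 were called higher, against 21.0% of all tested probes, and 0 were called lower, against 13.0%. The 24 include PCK1 probes that were well above background in KO alone. With only probes well above background on all 4 arrays, 22 member probes were called higher. SCD, LEP, LPL and LIPE were not called. The median log2 fold change of the 10 genes was 1.97, beside -0.05 over all tested probes.

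**Figure D1:**
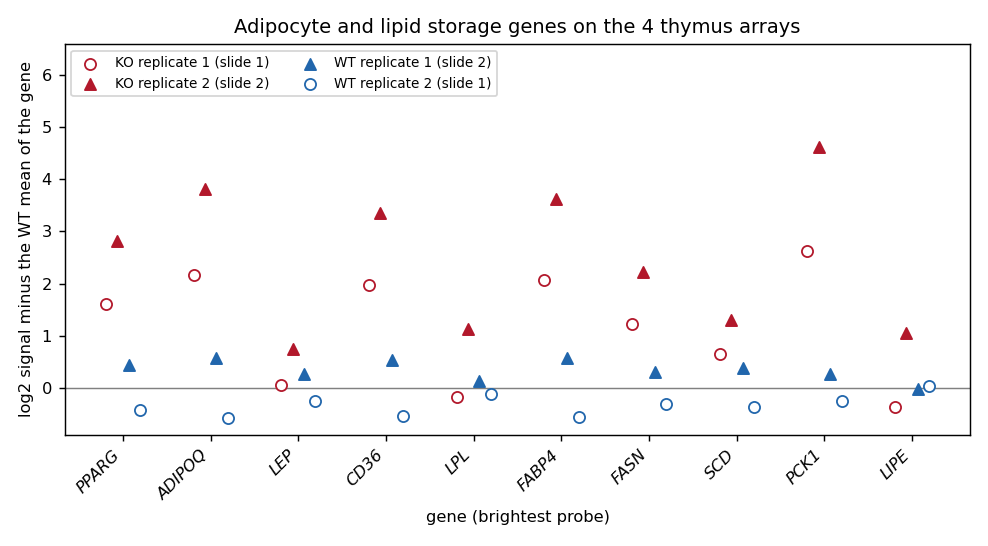
Normalized log2 signal of the brightest probe of each of the 10 genes on the 4 arrays, given as the distance from the WT mean of that gene (vertical axis, log2); circles are slide 1, triangles slide 2, red KO and blue WT. KO replicate 2 is the highest array for each of the 10 genes, and both KO arrays lie above both WT arrays for 7 genes, with overlap for LEP, LPL and LIPE.

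PPARG, the nuclear receptor that directs fat cell differentiation, stood at 0.98 in KO replicate 1 and 2.18 in KO replicate 2, and at -0.20 and -1.08 in WT replicates 1 and 2. Both KO samples were above both WT samples, and slide 2 carried the higher sample of each genotype. KO exceeded WT by a log2 fold change of 2.22 (SE 0.52, limma adjusted p = 0.028), or 4.64-fold. KO was higher by 2.05 within slide 1 and by 2.38 within slide 2. The other two PPARG probes were called as well, and the log2 fold changes of all 3 probes lay between 2.22 and 2.27.

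Among the hormones of fat, ADIPOQ was higher in KO and LEP was not called. ADIPOQ encodes adiponectin, which is secreted almost solely by adipocytes. Its levels were 0.27 and 1.92 in KO replicates 1 and 2, and -1.31 and -2.46 in WT replicates 1 and 2. The groups did not overlap, although KO replicate 1 stood closer to WT replicate 1 than to KO replicate 2. Its log2 fold change was 2.98 (SE 0.70, limma adjusted p = 0.0273), or 7.92-fold, with 2.73 within slide 1 and 3.24 within slide 2. The other ADIPOQ probe gave 2.94. LEP encodes leptin, the hormone by which fat stores act on appetite. Its level was -1.60 and -0.90 in KO, and in WT it was -1.39 and -1.92, which put WT replicate 1 above KO replicate 1. Its log2 fold change was 0.40 (SE 0.33, limma adjusted p = 0.373). The second LEP probe was well above background on KO replicate 2 alone.

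Of the 3 genes of fatty acid uptake and binding, CD36 and FABP4 were higher in KO and LPL was not called. CD36, a membrane transporter of fatty acids and a scavenger receptor, stood at 3.14 and 4.54 in KO replicates 1 and 2 and at 1.71 and 0.63 in WT replicates 1 and 2, without overlap. For CD36 the log2 fold change was 2.67 (SE 0.61, limma adjusted p = 0.0262), or 6.35-fold, and it was 2.51 within slide 1 and 2.82 within slide 2. All 4 CD36 probes were called, with log2 fold changes of 2.34 to 2.67. FABP4, the fatty acid binding protein that fills the cytosol of adipocytes, stood at 5.08 and 6.65 in KO and at 3.59 and 2.45 in WT. Here too the KO samples were both above the WT samples, and each genotype spread over more than 1 log2 unit. FABP4 had a log2 fold change of 2.85 (SE 0.67, limma adjusted p = 0.0278), or 7.20-fold, with 2.63 and 3.06 within slides 1 and 2. All 7 FABP4 probes were called, and their log2 fold changes lay between 2.69 and 2.85.

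LPL encodes lipoprotein lipase, which frees fatty acids from circulating triglyceride. Its levels of 1.83 and 3.14 in KO enclosed those of WT, 2.13 and 1.88, and KO replicate 1 was the lowest and KO replicate 2 the highest of the 4 samples. Its log2 fold change was 0.48 (SE 0.47, limma adjusted p = 0.449), and KO minus WT was -0.05 within slide 1 and 1.01 within slide 2. None of the 5 LPL probes was called, with log2 fold changes of 0.48 to 0.58.

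Of the genes that make and desaturate fatty acids, FASN was called and SCD was not. FASN, the fatty acid synthase, stood at 5.51 and 6.51 in KO replicates 1 and 2 and at 4.60 and 3.98 in WT replicates 1 and 2. The groups did not overlap, and the log2 fold change was 1.72 (SE 0.42, limma adjusted p = 0.0311), with 1.53 and 1.91 within slides 1 and 2. Its other two probes were also called, at 1.46 and 1.76. SCD, which puts the double bond into stearic acid, stood at 4.83 and 5.47 in KO and at 4.55 and 3.80 in WT. The KO samples were again above the WT samples, by 0.28 for the nearest pair. SCD had a log2 fold change of 0.98 (SE 0.36, limma adjusted p = 0.0885), and its 9 probes gave 0.63 to 1.06, none of them called. With the slide as a block the limma adjusted p of the brightest SCD probe was 0.0183, still at a difference under 2-fold. Another SCD probe was then called (log2 fold change 1.06, limma adjusted p = 0.0204).

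PCK1 showed the largest difference of the 10 genes. It encodes the cytosolic phosphoenolpyruvate carboxykinase, which serves glucose synthesis in liver and kidney and the making of glycerol for triglyceride in fat. Its levels were 0.38 and 2.36 in KO replicates 1 and 2, and -1.99 and -2.52 in WT replicates 1 and 2. The groups were apart by 2.37 at their nearest samples. PCK1 had a log2 fold change of 3.62 (SE 0.71, limma adjusted p = 0.0172), with 2.90 within slide 1 and 4.35 within slide 2. All 5 PCK1 probes were called, with log2 fold changes of 3.62 to 4.66. On 2 of them neither WT array was well above background, so that only a bound can be given for WT, and KO was at least 19.8-fold and at least 14.3-fold higher. These bounds set the mean of the KO samples against, for each WT array, the higher of its dimmest signal well above background and the signal of the probe itself.

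LIPE, the hormone-sensitive lipase that breaks down stored lipid, was not called. The WT samples, at 3.89 and 3.95, lay between the KO samples, at 3.55 and 4.98. The log2 fold change was 0.34 (SE 0.51, limma adjusted p = 0.61), and KO minus WT was -0.40 within slide 1 and 1.09 within slide 2. The 3 LIPE probes differed in sign, from -0.33 to 0.34, and none was called.

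**Figure D2:**
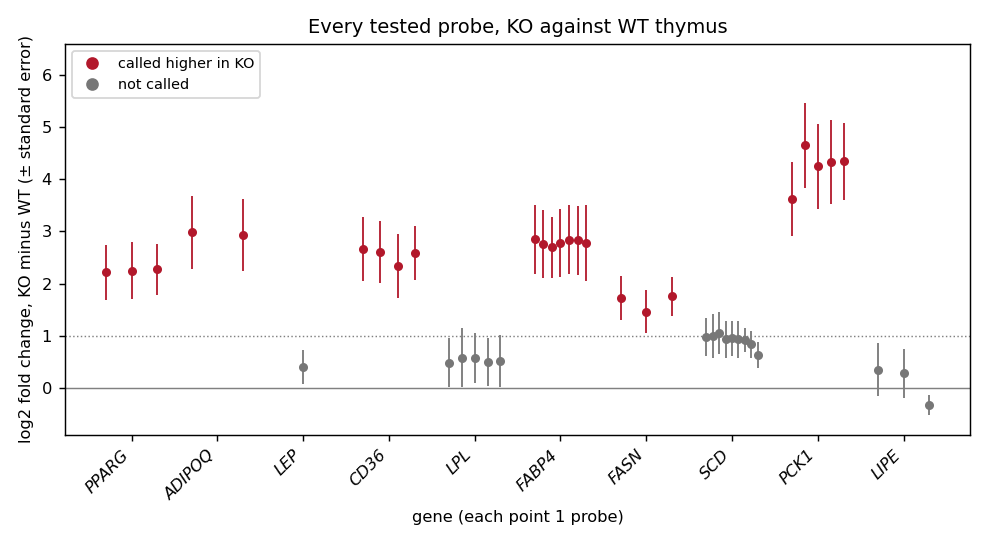
Log2 fold change of KO over WT (vertical axis, with standard error) for each of the 42 tested probes, grouped by gene; red points were called higher in KO and the dotted line marks 2-fold. All probes of PPARG, ADIPOQ, CD36, FABP4, FASN and PCK1 were called, and none of LEP, LPL, SCD or LIPE was.

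Both KO arrays were above both WT arrays for 33 of the 42 probes and 7 of the 10 genes, and 37.9% of all tested probes and 42.7% of the named genes had this pattern. KO was at least 2-fold higher on both slides for 24 of the 42 probes, against 19.6% of all probes. The calls depended on which arrays were fitted. The same 6 genes were called without KO replicate 1, and SCD joined them without WT replicate 1. Without KO replicate 2, the sample with the highest levels, PCK1 was the only gene of the 10 called, and the same held without WT replicate 2, the sample with the lowest levels of the 6 called genes. The log2 fold changes of ADIPOQ were then 2.16 and 2.41, with adjusted p of 0.0687 and 0.0685 by limma. Without KO replicate 2, those of LPL and LIPE turned to -0.18 and -0.37. In each of these fits the genotype left with 1 array was assumed to vary as the other one did. The shares of all tested probes called in these fits are not given here. The calls therefore do not show whether the 10 genes depended on single arrays more than other genes. The methods' t-test called none of the 10 genes. With Bonferroni or Benjamini-Hochberg adjustment it did not call IL2RG, the targeted gene, either. The share of all tested probes that it called is not given here.

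The samples of a genotype differed in these genes in one order. From high to low the order was KO replicate 2, KO replicate 1, WT replicate 1, WT replicate 2 for 33 of the 42 probes and for 7 of the 10 genes, against 14.1% of all probes and 19.7% of all named genes. KO replicate 2 was above KO replicate 1 by at least 2-fold on 30 of the 42 probes, whereas 1.97% of all tested probes differed so. For ADIPOQ this difference was 1.65, or 3.15-fold, and 0.504% of the tested probes differed by as much in that direction. For PCK1 it was 1.98, a size reached by 0.213% of the probes, for LIPE 1.43 and for LPL 1.31. LPL and LIPE, with no call between the genotypes, thus differed between the KO samples about as much as FABP4 (1.57) and CD36 (1.39) did. The dimmest LIPE probe was an exception, with a difference of 0.31 between the KO samples.

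In WT the difference ran the same way between the slides. WT replicate 1 was above WT replicate 2 by at least 2-fold on 9 of the 42 probes, against 6.37% of all probes, and these differences were 1.15 for ADIPOQ, 1.13 for FABP4 and 1.08 for CD36. It was 0.53 for PCK1, 0.26 for LPL and -0.06 for LIPE. Slide 2 was thus above slide 1 in both genotypes on 39 of the 42 probes, all but those of LIPE, against 30.6% of all probes. Whether KO and WT samples differed in the size of this step was not tested, with 1 array for each genotype and slide.

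**Figure D3:**
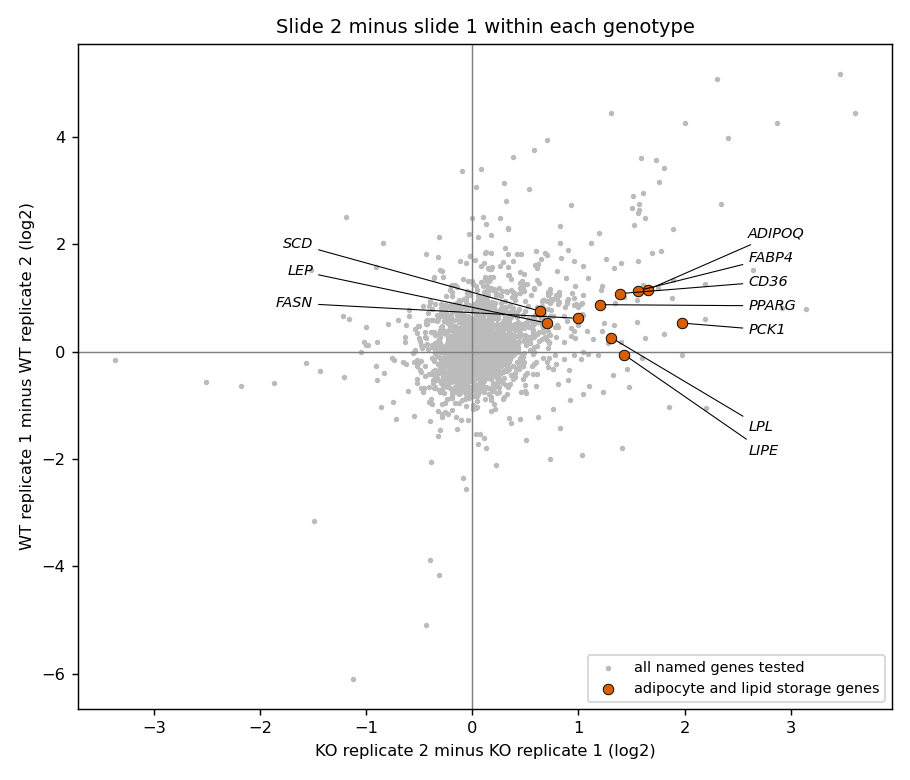
Difference between slide 2 and slide 1 in KO (horizontal axis, KO replicate 2 minus KO replicate 1, log2) and in WT (vertical axis, WT replicate 1 minus WT replicate 2, log2) for the brightest probe of each named gene; grey points are all 2702 tested genes and orange points the 10 adipocyte and lipid storage genes. The 10 genes lie to the right of 0, from 0.64 for SCD to 1.98 for PCK1, and all but LIPE (-0.06) lie above 0.

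In a limma fit with genotype and slide as terms, 0 of the 31959 probes were called different between the slides, and the smallest adjusted p was 0.622. With so few arrays for these terms, the absence of calls does not show that the slides were alike. At an unadjusted p under 0.05, 26 of the 42 probes were different between the slides, against 7.75% of all probes. The slide coefficient was 1.40 (SE 0.20) for ADIPOQ, 1.35 (SE 0.19) for FABP4 and 0.70 (SE 0.15) for SCD. With the slide as a block, the same 6 genes and 25 probes were called higher in KO, against 26.2% of the named genes and 21.7% of all probes, and the adjusted p of ADIPOQ and FABP4 was 0.00739 by limma. Each slide held 1 sample of each genotype, so that a difference between slides and one between samples cannot be told apart.

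The genes whose pattern over the 4 arrays was most like that of ADIPOQ were sought among the 2701 other named genes, by the root mean square difference of the log2 signals after each probe was centred on its own mean. The nearest was FABP4 (0.08), followed by FCN2 (0.11), ACKR4 (0.14), UCP3 (0.16) and CD36 (0.19). FCN2 is a ficolin, a soluble lectin of innate immunity, ACKR4 is a scavenging receptor for chemokines, and UCP3 is a mitochondrial carrier of muscle and brown fat. For FABP4 the nearest 5 were the same genes with ADIPOQ in place of FABP4, led by ACKR4 (0.07). ACKR4 stood at -0.42 and 1.13 in KO and at -1.92 and -2.89 in WT (log2 fold change 2.76, SE 0.63), and FCN2 at 3.67 and 5.10 in KO and at 1.79 and 0.77 in WT (log2 fold change 3.11, SE 0.61). The likeness covers 4 arrays only and is a description.

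Markers of the cell types that a thymus sample can hold were set beside these values. Of 10 adipocyte markers, 5 of which are among the 10 genes, 8 were tested, and PLIN1, ADIPOQ, FABP4 and PPARG were called higher in KO while CIDEC, LEP, LIPE and RETN were not called. PLIN1, the coat protein of the fat droplet, stood at -3.41 and -1.91 in KO and at -5.32 and -7.99 in WT, where only 1 of the 2 samples was well above background (log2 fold change 3.99, SE 1.04, limma adjusted p = 0.0366). RETN, which encodes resistin, had another pattern and was highest in WT replicate 1, with -3.83 and -0.22 in KO against 2.15 and -2.29 in WT. The probe of ADRB3, the receptor through which catecholamines act on fat, was too dim to be tested. Summed levels, here and below, are the log2 of the summed linear signals of a list, in which the brightest probes weigh most. For the 8 adipocyte markers this was 5.66 and 7.19 in KO, against 5.07 and 4.47 in WT. The brightest were FABP4 and LIPE, both among the 10 genes, so that the sum mainly follows these and not all 8 markers.

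Markers of other cells that use some of the same genes were also higher in KO. Of 10 tested macrophage markers, 8 were called higher, led by MRC1, C1QA and C1QB with log2 fold changes of 3.06, 2.40 and 2.35, and their summed level was 7.85 and 8.20 in KO, against 5.90 and 5.67 in WT. Of 6 endothelial markers, 5 were called higher, and the summed level was 4.29 and 4.44 in KO, against 2.86 and 2.24 in WT. Of 5 fibroblast markers, 3 were higher, with a summed level of 7.08 and 7.61 in KO and 6.48 and 5.83 in WT. Between the KO samples these lists differed by less than the adipocyte markers. The median of KO replicate 2 minus KO replicate 1 was 1.53 for the adipocyte markers, 1.35 for the 10 genes, 0.63 for fibroblast markers, 0.35 for macrophage markers and 0.17 for endothelial markers. For WT replicate 1 minus WT replicate 2 the medians were 1.14, 0.68, 0.66, 0.33 and 0.69 in the same order. Between the WT samples, fibroblast and endothelial markers thus differed about as much as the 10 genes. Of the 11 muscle markers 0 were called higher and 3 lower by limma on their brightest probes, although 7 of 10 CKM probes and 3 of 4 DES probes were called higher and 7 of 16 ACTA1 probes lower. Of the 4 tested liver markers 0 were higher and 1, TF, lower on its brightest probe, while of 3 TF probes 1 was called higher and 1 lower. Of the 4 tested markers of thymic epithelium, 3 were higher. The part of any of these cell types in the results was not tested.

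Other genes of lipid metabolism were taken from 9 lists with 163 genes, of which 99 were tested. Called higher in KO were 36 of them and called lower were 5, against 25.2% and 12.5% of all named genes, and the median of the log2 fold changes was 0.61, beside -0.05 over all tested probes. With only probes well above background on all 4 arrays, 32 list genes were called higher. The counts of the single lists below are to be read against the same shares.

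Of 16 tested genes of the lipid droplet and of lipolysis, 6 were higher and 1 was lower in KO, with a median of 1.41. PNPLA3, a droplet lipase, rose by 4.09 on the log2 scale (SE 1.11), from -1.51 and -4.40 in WT to 0.38 and 1.90 in KO. AQP7, the glycerol channel of fat cells, was not well above background on either WT array and was at least 2.89-fold higher in KO. PLIN3, a droplet coat protein found in most cells, fell by 2.61 on the log2 scale (SE 0.19, limma adjusted p = 0.00235), from 2.65 and 2.30 in WT to -0.12 and -0.14 in KO.

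Of 13 tested genes of triglyceride assembly, 4 were higher and 0 lower by limma, with a median of 0.54. DGAT2, which adds the last fatty acid to triglyceride, stood at 1.30 and 2.90 in KO and at -0.61 and -3.56 in WT (log2 fold change 4.18, SE 1.14, limma adjusted p = 0.0408). GPD1 and AGPAT2, which act earlier in the same pathway, gave 1.47 and 1.45. Of 10 tested genes of fatty acid synthesis beside FASN and SCD, 1 was higher and 0 were lower, a smaller share than over all named genes, with a median of -0.11. That gene was ACACA, the acetyl-CoA carboxylase that supplies FASN with malonyl-CoA, with -2.29 and -1.68 in KO and -3.50 and -4.33 in WT (log2 fold change 1.93, SE 0.38).

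Of 12 tested genes of fatty acid and lipoprotein uptake and binding, 7 were higher and 2 lower in KO, with a median of 1.39. FABP7, SLC27A1 and FABP3 led the rise with log2 fold changes of 3.18, 2.36 and 2.36. FABP7 is the form of neural cells, FABP3 that of heart and muscle, and SLC27A1 is a fatty acid transporter. FABP7 was lower in KO replicate 2 than in KO replicate 1 (-3.28 and -0.78), against the order of FABP4. Among the WT samples it was well above background on WT replicate 2 alone. FABP6, an ileal protein that binds bile acids, fell by 4.97 on the log2 scale (SE 0.16), from 7.32 and 7.36 in WT to 2.44 and 2.29 in KO. APOC3, an apolipoprotein made in liver that slows lipoprotein lipase, fell by 1.25 (SE 0.30), with 1 of its 2 tested probes called.

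Of 15 tested regulators of fat cell formation, 7 were higher and 0 lower by limma, with a median of 1.43. Among the 7, RXRG was not well above background on either WT array. It was at least 1.91-fold higher in KO, a bound under the 2-fold threshold. PPARA, which was not called, was also dim on both WT arrays, and the median uses the measured signals of both genes. KLF5, KLF15 and NR2F2, transcription factors with roles in many tissues, gave log2 fold changes of 2.77, 2.43 and 2.43. Their KO samples lay close together, at -1.35 and -1.61 for KLF5, 2.19 and 2.36 for KLF15 and 1.22 and 1.26 for NR2F2, unlike those of PPARG. Of 10 tested adipokines and receptors, 4 were higher and 1 lower, with a median of 0.72. RBP4, the carrier of retinol, stood at 0.85 and 2.37 in KO and at -1.18 and -3.54 in WT (log2 fold change 3.97, SE 0.96). VEGFA, a growth factor of vessels that many cells secrete, gave 2.57, and ADIPOR1, a receptor for adiponectin, fell by 1.01 (SE 0.18). Among the tested probes, 2 of 3 for RBP4 and 1 of 2 for ADIPOR1 were called.

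Of 6 tested genes of insulin and catecholamine action, 3 were higher and 0 lower by limma, with a median of 1.06. SLC2A4, the insulin-responsive glucose transporter of fat and muscle, stood at 1.43 and 2.37 in KO and at -1.00 and -3.73 in WT (log2 fold change 4.26, SE 0.98, limma adjusted p = 0.0265). IRS1, an adaptor protein of the insulin receptor, gave 2.26. Among the tested probes, 2 of 3 for SLC2A4 and 1 of 2 for IRS1 were called. Of 14 tested genes of fatty acid oxidation and brown fat, 3 were higher and 0 lower, a share of higher genes below that of all named genes, with a median of 0.45. These were PDK4, the kinase that spares glucose by shutting pyruvate dehydrogenase, with 3.69, UCP3 with 2.67 and COX7A1, a subunit of respiratory complex IV, with 1.87. Of the 2 tested UCP3 probes, 1 was called. Of 3 tested genes of glucose and glycerol synthesis beside PCK1, the pyruvate carboxylase gene PC rose by 2.11 (SE 0.31), and PCK2, the mitochondrial counterpart of PCK1, fell by 1.98 (SE 0.24), with 0.24 and 0.36 in KO and 2.54 and 2.01 in WT.

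**Figure D4:**
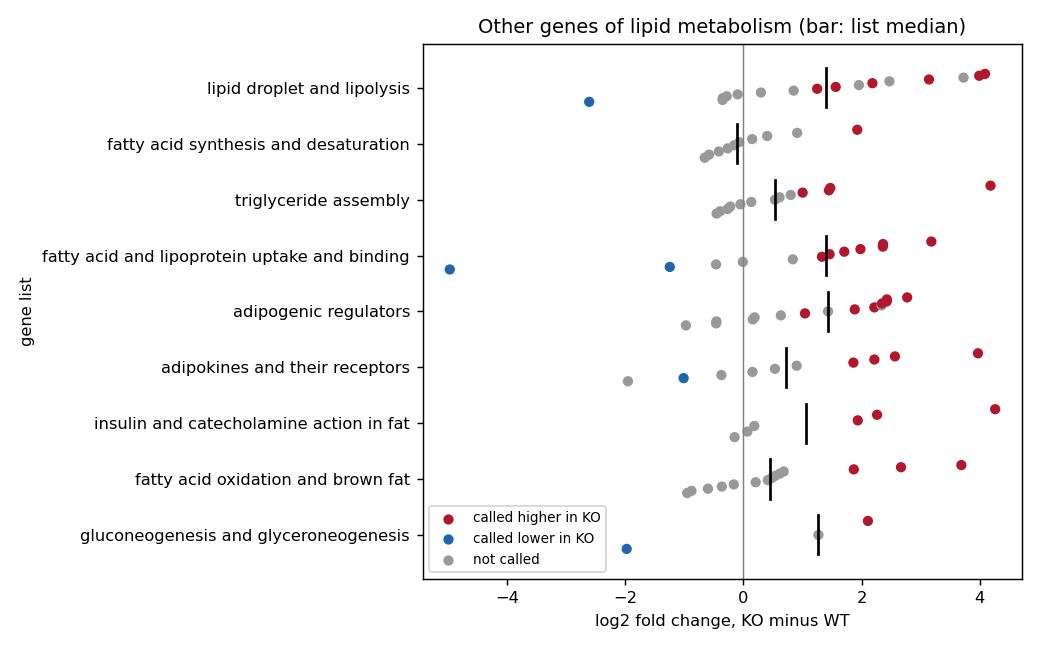
Log2 fold change of KO over WT (horizontal axis) for each tested gene of 9 lists of lipid metabolism (vertical axis), with red for called higher, blue for called lower, grey for not called and a black bar at the list median. The medians run from -0.11 for fatty acid synthesis to 1.43 for adipogenic regulators, and FABP6 at -4.97 is the lowest gene shown.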

How the data were processed

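Thymus RNA was labelled with Cy3 and hybridised to 1-colour Agilent porcine arrays. The methods also mention Cy5, but the labels name Cy3 alone and the files hold 1 channel. The authors deposited scanner output of Agilent Feature Extraction, version 11.0.1.1 per the labels, whose intensity values are processed signals on a linear scale, corrected for background and not normalized between arrays. They also deposited a table of log2 values, which held quantile normalized signals of 27970 probes usable here (median 8.49, correlation with the scanner output 0.9998 or more for each array).

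Here control spots and outlier spots were left out, which removed 6 of 43603 probes. Log2 processed signals were reduced by the 75th percentile of their array, spots of a probe were averaged, and probes well above background on both arrays of a genotype were kept. No spot was saturated. Of 7111 probes with a RefSeq accession, 6686 were named through a RefSeq table of another build, used for names only. KO and WT were compared with limma 3.58.1 (R 4.3.3), with Benjamini-Hochberg adjustment over all 31959 tested probes. Named were all 10 genes, IL2RG, the 5 genes most like ADIPOQ and FABP4, and up to 3 called genes of each list and direction, of which some are not reported here. The other genes named were chosen after their values were seen. The members and lists were chosen with earlier results of these data known. When the comparison was tested on simulated data over 31959 probes, 48.3% of changes of 1.5 and 96.7% of changes of 3 on the log2 scale were called. Few probes, drawn at random, were changed in each simulation, whereas 21.0% of the tested probes were called higher and 13.0% lower in the data. These shares are therefore no measure of how readily changes of the 10 genes were called. The number of arrays limits the precision, and the smallest exact two-sided permutation p for 1 gene is 0.333. Alternatives were quantile, median and normexp processing (offset 50, on the median intensity of a spot), the deposited log2 table, other filters on dim probes, slide or replicate blocks, an intensity trend, the methods' t-test, a 4-fold threshold and leaving out each array.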

Additional observations from a re-analysis of the deposited data

How the results depend on the processing

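The 6 genes were called under scaling to the median, with a filter for all 4 arrays, with a block for the slide or for the replicate number, with an intensity trend and without KO replicate 1. SCD joined them under quantile normalization (1.18), normexp correction (1.00), the deposited log2 table (1.18) and without WT replicate 1 (1.35), and FASN was lost with no filter on dim probes (1.72, limma adjusted p = 0.0505). Scaling to the median moved all log2 fold changes by -0.27, and no member changed sign. The methods' t-test called 0 member genes, 0 member probes and 0 genes of the 9 lists with the Bonferroni correction, and 0, 0 and 2 with Benjamini-Hochberg adjustment, and also 0 member genes and 0 probes unadjusted. IL2RG (-3.41) then had an adjusted p of 1 and of 0.0613. Leaving out 1 array gave 1 to 7 member genes, 6 to 32 member probes and 17 to 39 genes of the lists called higher, and no member called lower by limma. The lowest counts came without KO replicate 2 (1 gene, 6 probes and 17 list genes), where LPL (-0.18) and LIPE (-0.37) changed sign (at most 1.14 and 1.06 without another array), and without WT replicate 2 (1 gene and 7 probes). The shares of all probes called without an array are not given here, so these counts cannot be set against the whole array. At a 4-fold threshold on all arrays, 5 member genes, 21 member probes and 21 list genes were called higher. FASN, at 3.29-fold, was the member gene lost there. KO replicate 2 minus KO replicate 1 had a median of 1.35 over the 10 genes and 1.34 under median scaling.

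Replicate numbers were shared by the genotypes, but samples of the same number did not deviate together (correlation -0.29). With the replicate number as a block, 6 member genes and 23 member probes were called. The crossed pairing is that of the slides, and with it as a block 6 genes and 25 probes were called.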

Other observations

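The named genes with the largest step between the slides in both genotypes were listed, and those given here were chosen after their values were seen. RETN led with 3.61 in KO (replicate 2 minus replicate 1) and 4.44 in WT (replicate 1 minus replicate 2). It was followed by PR39 and NPG4, antimicrobial peptides of pig neutrophils, with 3.47 and 2.87 in KO and 5.16 and 4.26 in WT, and by S100A8, a calgranulin, with 2.41 and 3.98. For these 4 genes WT replicate 1 had the highest level and KO replicate 1 the lowest, so that their order differed from that of ADIPOQ. CIDEC and CIDEA, proteins of the fat droplet, were also among the 15 with the largest step, with 1.76 and 1.69 in KO and 3.16 and 1.84 in WT, as was CA3, a carbonic anhydrase of muscle and fat, with 1.77 and 1.87. CIDEC stood at 0.31 and 2.07 in KO and at -0.95 and -4.12 in WT, in the order of ADIPOQ. Its log2 fold change was 3.73 (SE 1.23, limma adjusted p = 0.0657, and 0.0108 with the slide as a block). The log2 fold change of CIDEA was 2.47 (SE 0.86, limma adjusted p = 0.0738, and 0.00731 with the slide as a block).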
